A study of Mus musculus with 16 samples.

Results

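Collagen genes encode the triple-helical proteins of the extracellular matrix, and the binding of Oct4, Sox2 and engineered POU factors around 39 of them was examined in mouse embryonic fibroblasts (MEFs) undergoing reprogramming. A summit, the position of highest enrichment within a ChIP-seq peak, was assigned to a collagen gene when it lay in the gene body or up to 20 kb to either side in mm10 with the GENCODE M21 annotation. All 39 genes were found in the annotation, on 14 chromosomes, and their windows merged into 35 blocks covering 5.92 Mb, or 0.217% of the genome. These windows held 632 of the 227116 summits of the 13 libraries, 469 inside a collagen gene body and 163 in the flanks alone. Of these summits, 28 fell in the windows of 2 collagen genes. They were counted for both genes in counts by gene, and once in the totals by library and by class. Summits of different libraries that lay within 100 bp of each other were joined in chains, which gave 482 sites, of which 10 span more than 100 bp and the longest 184 bp.

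The cells were OG2 MEFs, which carry a GFP transgene under the Oct4 promoter, transduced with pMX retroviruses for Sox2, Klf4 and 1 POU factor, and days were counted from the switch to the chemically defined medium iCD1. All cocktails therefore contained Sox2 and Klf4 (SK). Oct4 was profiled in Oct4-SK cells on days 1, 5 and 7. Oct4defSox2, an Oct4 mutant impaired in pairing with Sox2 on the canonical SoxOct element, was profiled in Oct4defSox2-SK cells on days 1 and 5. The Oct4 S151M and Oct6 M151S factors, in which a residue was exchanged between Oct4 and Oct6, were each profiled in the cells that received them on day 1, although a label of the Oct6 M151S library gives day 2. Sox2 was profiled on days 1 and 5 after transduction with Oct4-SK, with Oct6-SK or with Oct4defSox2-SK. Whole cultures were collected, so that cells at different stages of reprogramming cannot be told apart. Each group had 1 library, so that no comparison below has a replicate check, no p-value is given, and every interval covers counting error only. Expression was not measured in these libraries, and the labelled cell type could not be checked against its markers here.

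Fibroblasts are a main source of the fibrillar collagens, of which types I and III form the bulk fibres of connective tissue and are typical products of MEFs. Type IV chains build the networks of basement membranes, type VI chains form beaded microfibrils, FACIT collagens decorate the surface of fibrils, and the multiplexins Col15a1 and Col18a1 sit between basement membranes and the tissue below. Oct4 recognises the octamer as a monomer, the composite SoxOct element together with Sox2, and the palindromic MORE element as a homodimer. Genes of the fibroblast programme are known to be shut down during reprogramming, and somatic enhancers often carry elements of the AP-1 family.

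Collagen genes were long, and they were compared with other genes both by gene and per Mb of window. Their bodies spanned 7.1 to 468 kb with a median of 114 kb, against a median of 17.4 kb over the 21938 protein-coding genes. At day 1, 12 of 39 collagen genes (30.8%) had an Oct4 summit in their window, beside 19.4% of all protein-coding genes. The Oct4 day 1 library had 3.21 summits per Mb of collagen window and 3.47 per Mb in the windows of all other protein-coding genes, a ratio of 0.92 (95% interval 0.56 to 1.44). The interval of this ratio included 1 in each of the 13 libraries, so that a density at collagen genes above or below that at other genes was not detectable at these counts.

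**Figure D1:**
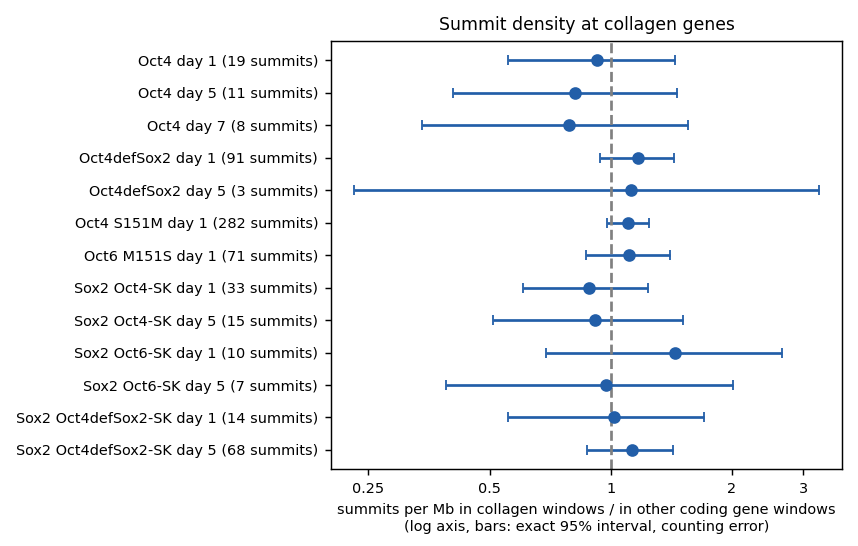
Summit density in collagen windows divided by that in the windows of all other protein-coding genes, for each of the 13 libraries (log axis; points, ratio; bars, exact 95% interval of counting error; dashed line, equal density). The ratios lie between 0.79 for Oct4 on day 7 and 1.44 for Sox2 in Oct6-SK cells on day 1, and every bar crosses 1.

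Sequences of 201 bases centred on a summit are shown for the sites that held a POU element among those bound by Oct4 on all 3 days and the 10 sites with summits of the most libraries (Col15a1 with 6 of the 13 libraries, Col4a1 and Col23a1 with 5 each), since the account of persistence and of Sox2 partners below turns on them. A second intronic MORE site and the promoter of Col3a1 were added after their values were seen. They were read from the plus strand of the RefSeq assembly GRCm38.p6 at chr4:47226018-47226218 (Col15a1), chr8:11276930-11277130 (Col4a1), chr11:51274473-51274673 (Col23a1), chr16:57736820-57737020 (Col8a1) and chr1:45311296-45311496 (Col3a1). Capitals mark the MORE element in Col15a1 and Col8a1 and the SoxOct element in the other sequences, the 5′ end being on the left.
Col15a1: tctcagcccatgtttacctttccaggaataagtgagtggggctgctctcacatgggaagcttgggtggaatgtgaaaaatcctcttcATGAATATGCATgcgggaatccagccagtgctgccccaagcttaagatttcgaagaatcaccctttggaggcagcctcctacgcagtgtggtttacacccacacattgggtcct
Col4a1: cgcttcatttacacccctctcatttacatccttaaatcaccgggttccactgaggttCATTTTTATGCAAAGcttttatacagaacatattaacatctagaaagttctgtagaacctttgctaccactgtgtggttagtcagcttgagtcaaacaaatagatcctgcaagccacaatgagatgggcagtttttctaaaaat
Col23a1: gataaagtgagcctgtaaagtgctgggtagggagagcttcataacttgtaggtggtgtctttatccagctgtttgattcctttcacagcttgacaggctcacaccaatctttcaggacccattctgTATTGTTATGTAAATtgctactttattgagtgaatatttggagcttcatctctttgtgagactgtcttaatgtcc
Col8a1: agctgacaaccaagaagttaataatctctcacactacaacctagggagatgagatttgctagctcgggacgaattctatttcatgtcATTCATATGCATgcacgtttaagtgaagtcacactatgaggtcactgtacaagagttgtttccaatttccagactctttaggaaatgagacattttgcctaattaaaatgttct
Col3a1: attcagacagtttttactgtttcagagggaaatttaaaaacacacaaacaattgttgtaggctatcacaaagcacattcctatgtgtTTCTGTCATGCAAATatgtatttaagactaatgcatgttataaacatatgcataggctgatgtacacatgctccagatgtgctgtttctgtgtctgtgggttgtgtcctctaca
The MORE of Col15a1 had 0 mismatches and that of Col8a1 had 1, counted against a consensus that accepts A or C at the fourth base and G or T at the ninth. The SoxOct elements of Col4a1, Col23a1 and Col3a1 each had 2 mismatches, and the one at Col3a1 contains the octamer ATGCAAAT. A match is a description of the letters and not evidence of a contact.

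The intron of Col15a1, 18.0 kb from the gene start, held the strongest persistent site. The score of a summit, the −log10 of its peak-calling p-value within a library, was 26.1 for Oct4 on day 1, 191 on day 5 and 125 on day 7. These summits outranked 87.6%, 99.8% and 99.9% of the summits of their libraries. At the same position Oct4defSox2 scored 172 on day 1 and 127 on day 5, and Oct4 S151M scored 255. None of the 6 Sox2 libraries and not the Oct6 M151S library had a summit there. Scores depend on the depth of a library and are not on 1 scale between libraries, so that scores printed side by side are descriptions. Ranks place a summit within its own list. The lists hold 1038 to 101170 summits, so that ranks are not on 1 scale between libraries either.

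An intron of Col24a1 held the other site with Oct4 on each of the 3 days. Col24a1 is a fibrillar collagen of developing bone and cornea, and the site lay 172 kb from the gene start at chr3:145464431-145464480. Its scores were 18.2, 40.6 and 25.2 on days 1, 5 and 7 for Oct4, 127 and 40.6 on days 1 and 5 for Oct4defSox2, and 56.4 for Oct4 S151M. No SoxOct, MORE or octamer element was found within 100 bp of it, and no Sox2 library had a summit there. Col15a1 and Col24a1 thus each carried a site present in the same 6 libraries, all made with the Oct4 antibody.

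Most other Oct4 sites were seen on 1 day only. With the 3 Oct4 libraries joined within 100 bp, the collagen windows held 28 Oct4 sites. Of these, 11 were bound on day 1 alone, 5 on day 5 alone and 4 on day 7 alone. Another 4 were shared by days 1 and 5, 2 by days 1 and 7, and 2 by all 3 days. In all, 20 of 28 (71.4%) were seen on 1 day only, against 79.4% of the Oct4 sites elsewhere in the genome, a difference of -8.01 percentage points (95% interval -26.5 to 5.33). Taken by summits, 6 of the 19 Oct4 day 1 summits (31.6%) had an Oct4 summit within 100 bp on day 5, against 24.5% outside collagen windows, and 4 of 19 (21.1%) had one on day 7, against 13% outside. The intervals of both differences included 0, running from -9.17 to 29.5 points for day 5 and from -4.56 to 30.3 points for day 7. Looking back from the later days, 6 of 11 day 5 summits and 4 of 8 day 7 summits had a day 1 summit within 100 bp, against 41.4% and 29.4% outside. Of the 8 day 7 summits, 2 had a day 5 summit, against 33.7% outside.

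**Figure D2:**
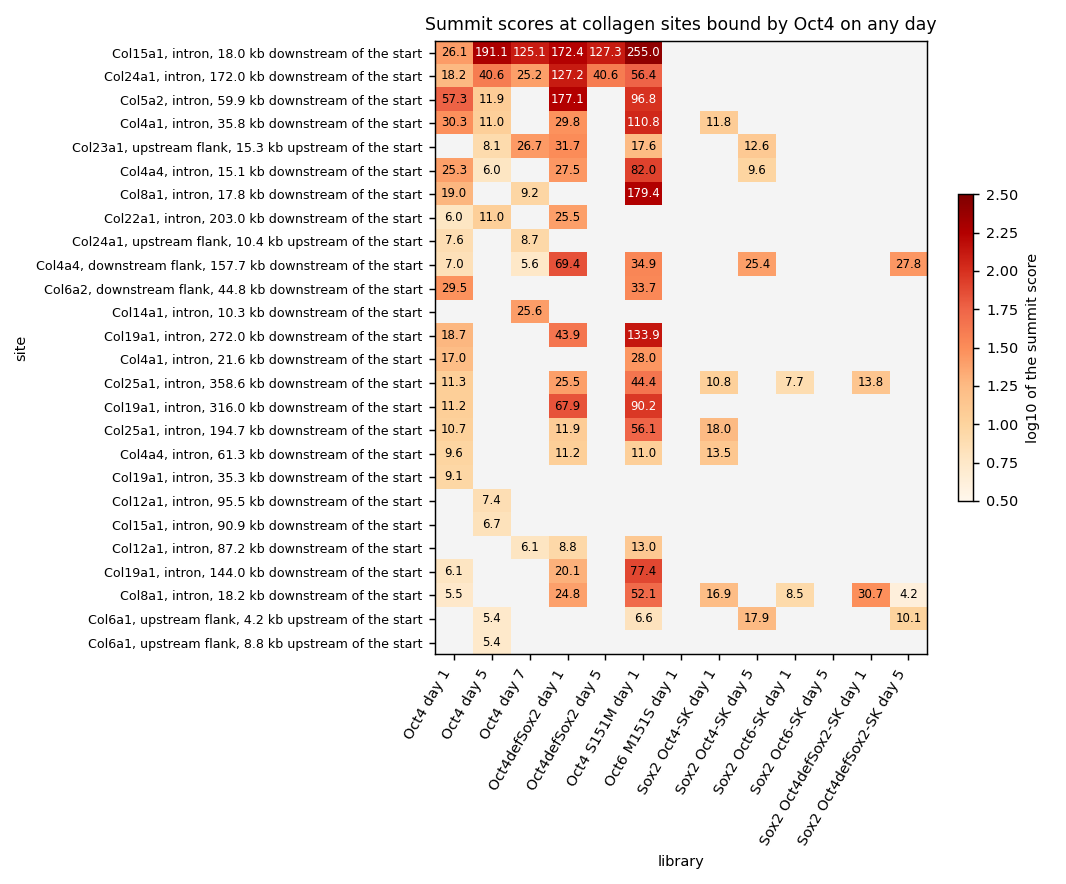
Summit scores in all 13 libraries at the 26 collagen sites bound by Oct4 on at least 1 day after all 13 libraries were joined (rows, site with gene, place and distance from the gene start; columns, library; colour, log10 of the score, which is not on 1 scale between libraries; grey, no summit). The Col15a1 and Col24a1 sites at the top are filled in the same 6 libraries, while the Oct6 M151S column is empty (6.19% of the Oct4 sites elsewhere had such a summit); 5 of the 26 rows are chains that span more than 100 bp.

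Oct4 occupied 16 of 39 collagen genes (41%) on at least 1 day, beside 29.6% of all protein-coding genes. These were the fibrillar genes Col5a2 and Col24a1, the type IV genes Col4a1, Col4a3 and Col4a4, the short-chain gene Col8a1, the type VI genes Col6a1 and Col6a2, the FACIT genes Col9a1, Col12a1, Col14a1, Col19a1 and Col22a1, the transmembrane genes Col23a1 and Col25a1, and Col15a1. Col4a3 was counted through a site in an intron of its neighbour Col4a4 alone, and Col9a1 through a site in an intron of Col19a1 alone. The count at a minimum of 1 summit was 12 on day 1, 10 on day 5 (background 16.1%) and 7 on day 7 (background 11.9%). Col19a1 held the most Oct4 summits on day 1, 4 in all, and had none on days 5 and 7. Col6a1 and Col15a1 held the most on day 5, with 2 each, and Col24a1 the most on day 7, with 2. Both Col6a1 summits scored 5.4, the lowest collagen score of the day 5 list. By gene, Col24a1, Col4a4 and Col15a1 had Oct4 on all 3 days, or 7.69% of the members beside 5.11% of protein-coding genes. Col4a4 encodes a chain of the glomerular basement membrane of the kidney. Its intronic site was bound on days 1 and 5, and a downstream site inside the neighbouring gene Rhbdd1 on days 1 and 7. An Oct4 summit on both day 1 and day 5 occurred in 7 genes (17.9%, background 9.52%).

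Col1a1, Col1a2 and Col3a1, which encode the chains of type I and type III collagen, had 0 Oct4 summits on days 1, 5 and 7. They shared this with most members, since 23 of 39 had none on any day and 29.6% of all protein-coding genes had one. Col1a1 had 7 summits in all, from Oct4 S151M (3), Oct6 M151S (1), Sox2 in Oct4-SK cells on day 1 (1) and day 5 (1) and Sox2 in Oct4defSox2-SK cells on day 5 (1). The Sox2 summits of day 5 fell on the same site in an untranslated region, with scores of 9.6 in Oct4-SK and 8.6 in Oct4defSox2-SK cells. Col1a2 and Col3a1 had summits of the Oct4 mutants. Col1a2 held 4 Oct4defSox2 summits on day 1, 1 on day 5 and 9 of Oct4 S151M. Col3a1 held 6 Oct4defSox2 summits on day 1, 0 on day 5 and 7 of Oct4 S151M. The Col3a1 counts of both mutants include summits in the flank shared with Col5a2, which were counted for Col5a2 as well. The Oct4 list held 8216 summits on day 1, the Oct4defSox2 list 31070 and the Oct4 S151M list 101170, so the length of the lists differed along with this contrast.

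The promoter of Col3a1 carried the sequence shown above, 142 bp upstream of the gene start. Oct4 S151M scored 64.9 there, above 83.5% of its summits, and Oct4defSox2 scored 7.0 on day 1, above 17.4% of its summits. At Col1a2 the strongest summits lay about 49 kb from the start, in the downstream flank. There Oct4defSox2 scored 43.1 on day 1 at chr6:4553441, and Oct4 S151M scored 212 at chr6:4553633, where a MORE element was found. When as many of the strongest summits were taken from each mutant list as the Oct4 day 1 list holds (8216), 17 collagen genes held an Oct4defSox2 summit (background 19.3%) and 17 an Oct4 S151M summit (background 23.2%). Col1a2 remained among the genes with a mutant summit and no Oct4 summit in both lists, and Col3a1 in neither.

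**Figure D3:**
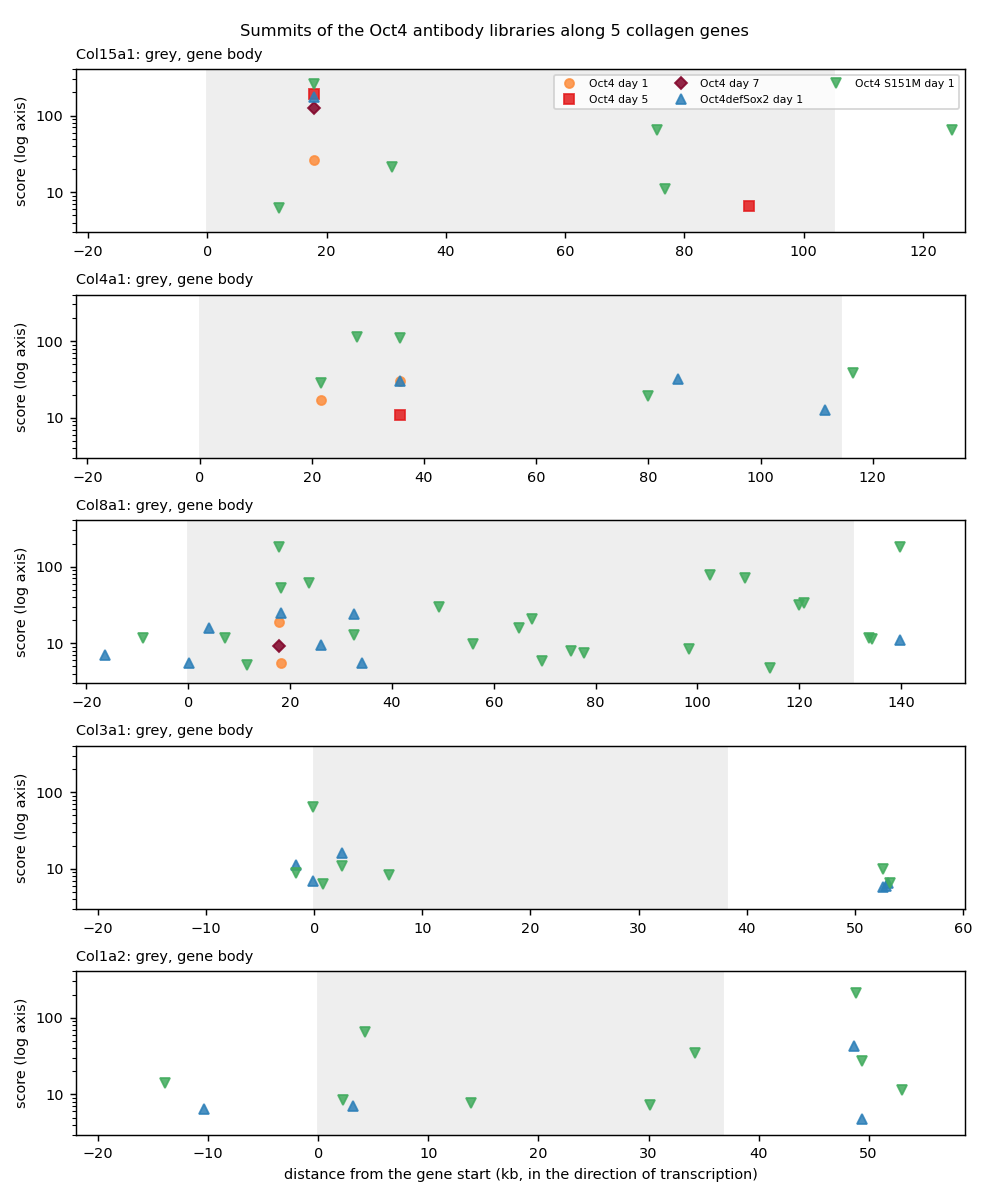
Scores (log axis) of the Oct4, Oct4defSox2 day 1 and Oct4 S151M summits along Col15a1, Col4a1, Col8a1, Col3a1 and Col1a2 by distance from the gene start in kb (grey, gene body; symbols, library). Oct4 symbols are absent from the windows of Col3a1 and Col1a2, and those of Col15a1 stack at 18.0 kb with a separate day 5 summit at 90.9 kb.

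No Oct4 summit of days 1, 5 or 7 lay within 1 kb of a transcript start of a collagen gene (background 1.1%, 1.69% and 0.597% of protein-coding genes). Of the 19 day 1 summits, 16 lay in introns, 2 downstream and 1 upstream. Oct4defSox2 on day 1 had summits at the starts of Col3a1, Col8a1 and Col25a1 (background 5.62%), and Oct4 S151M at those of Col3a1, Col11a2, Col6a1, Col14a1 and Col25a1 (background 9.82%). Among these, the start of Col14a1, a FACIT collagen of tendon and skin, had a score of 238 and a MORE element in the Oct4 S151M library. Over all 482 sites, 336 were intronic, 65 lay downstream, 56 upstream, 15 at a start, 6 in exons and 4 in untranslated regions. Another protein-coding gene overlapped 42 of the sites, so that these could equally belong to that gene.

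The Oct4 mutants were compared with Oct4 summit by summit. Of the 19 Oct4 day 1 summits, 12 (63.2%) had an Oct4defSox2 day 1 summit within 100 bp, against 57.4% outside collagen windows, and 15 (78.9%) an Oct4 S151M summit, against 78.2% outside. The differences were 5.76 points (95% interval -16.4 to 23.5) and 0.76 points (95% interval -21.5 to 13.3). With equal numbers of strongest summits, 11 of 19 had an Oct4defSox2 partner, against 37% outside, a difference of 20.9 points (95% interval -0.78 to 39.9). The count for Oct4 S151M dropped to 3 of 19, against 20.4% outside, a difference of -4.58 points (95% interval -14.9 to 17.2). Of the 28 Oct4 sites of all days, 14 (50.0%) had an Oct4defSox2 summit of day 1 and 20 (71.4%) an Oct4 S151M summit, against 46.7% and 63.1% elsewhere. By gene, 27 of 39 (69.2%) held an Oct4defSox2 summit on day 1 (background 45.2%) and 37 of 39 (94.9%) an Oct4 S151M summit (background 78%), the exceptions being the cartilage gene Col2a1 and the anchoring fibril gene Col7a1. An Oct4defSox2 summit without an Oct4 summit on day 1 occurred in 16 genes (41%, background 28.3%), and the opposite in 1, Col6a2 (background 2.46%). Oct4 S151M without Oct4 on day 1 occurred in 25 genes (64.1%, background 58.8%). In the other direction, 12 of the 91 Oct4defSox2 summits (13.2%) had an Oct4 day 1 summit, against 15.2% outside, and 42 (46.2%) an Oct4 S151M summit, against 43.5% outside. Of the 282 Oct4 S151M summits, 15 (5.32%) had an Oct4 day 1 summit, against 6.34% outside.

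In an intron of Col5a2, which encodes a chain that regulates the diameter of type I fibrils, the strongest collagen summit of both day 1 lists was found at chr1:45443334-45443359. Oct4 scored 57.3 there on day 1 and 11.9 on day 5, above 97.7% and 65.6% of the summits of those lists, and had no summit on day 7. Oct4defSox2 scored 177 on day 1 and Oct4 S151M 96.8. In Col4a1, the main basement membrane chain, the SoxOct site shown above scored 30.3 and 11.0 for Oct4 on days 1 and 5, 29.8 for Oct4defSox2 on day 1, 111 for Oct4 S151M and 11.8 for Sox2 in Oct4-SK cells on day 1. The SoxOct site of Col23a1 lay upstream inside the neighbouring gene Clk4 and had no Oct4 summit on day 1 and a score of 26.7 on day 7. An Oct4 summit of day 5 scoring 8.1 was 166 bp from that of day 7 and 126 bp from the element, so that it counts as another Oct4 site. Oct4defSox2 scored 31.7 on day 1 at the element, and Sox2 scored 12.6 in Oct4-SK cells on day 5. The Oct4defSox2 mutant had summits near the SoxOct elements of Col4a1 and Col23a1 on day 1, at 51 and 6 bp.

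Few Oct4defSox2 summits were left on day 5. The list shrank from 31070 to 1038 summits and the collagen windows from 91 to 3, so that the collagen share was 0.293% on day 1 and 0.289% on day 5, a difference of 0.004 points (95% interval -0.556 to 0.206). The 3 summits lay at the Col15a1 and Col24a1 sites described above and in the upstream flank of Col1a2, where the score was 6.4 on day 1 and 6.7 on day 5. Each of the 3 had a day 1 summit of the mutant within 100 bp, so that 3 of the 91 day 1 summits (3.30%) were seen again, against 2.35% outside. The background of genes with a summit was 4.07% on day 5, against 7.69% of the collagen genes.

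The Oct4 S151M library contributed 282 of the 632 summits, and 227 of its 282 sites (80.5%) were seen in no other library, against 81.1% of its sites outside. Col25a1, a transmembrane collagen and the longest member, held 28 of them. Its median fold enrichment over the local background was 7.28 in collagen windows and 7.32 over the library, with a range of 2.86 to 85.8. The highest score, 686, lay in an intron of Col4a2 at chr8:11355207 and outranked 99.6% of the library. No other library had a summit at this position and no POU element was found there. Of the 282 summits, 63 (22.3%) had a MORE or MORE with 1 extra base, against 24.5% outside, and 13 (4.61%) a SoxOct element, against 5.87% outside. In an intron of Col8a1, a short-chain collagen of vessel walls and the cornea, the MORE site shown above, 17.8 kb from the start, scored 179 for Oct4 S151M, and the Oct4defSox2 lists had no summit there. Oct4 summits of day 1 (score 19) and day 7 (score 9.2) lay on either side of the element, 133 bp apart, and count as separate Oct4 sites. A neighbouring chain of summits spanning 136 bp, 18.2 kb from the start, held summits of 7 libraries, more than any other collagen site, with an AP-1 element and scores of 5.5 for Oct4, 24.8 for Oct4defSox2 and 52.1 for Oct4 S151M on day 1. Sox2 scored 16.9 there in Oct4-SK cells, 8.5 in Oct6-SK cells and 30.7 in Oct4defSox2-SK cells on day 1, and 4.2 for Sox2 in Oct4defSox2-SK cells on day 5.

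The Oct6 M151S library stood apart. Its list reached down to a score of 2.3, below that of the others, and 47 of its 71 collagen summits scored under 4. The peak-calling cutoff stated in the paper corresponds to a score of 4, so that these 47 lie below it. Only 14 of the 71 (19.7%) had a q-value under 0.05, against 21.2% of the whole library, and its highest collagen score was 8.6, in an intron of Col11a1. It had a summit in 32 of 39 genes (background 52%), led by Col12a1 and Col25a1 with 7 each. Of its 71 sites, 64 (90.1%) were seen in no other library, against 86% of its sites outside, and 4 of its summits (5.63%) lay within 100 bp of an Oct4 S151M summit, against 7.1% outside. None of the 28 Oct4 sites had an Oct6 M151S summit, against 6.19% elsewhere. With this library left out the collagen windows held 561 summits.

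Sox2 occupied 35 of 39 collagen genes (89.7%) in at least 1 of its 6 libraries, beside 62.2% of protein-coding genes. In Oct4-SK cells, 33 collagen summits were found on day 1 and 15 on day 5, in 21 and 14 genes (background 31.4% and 18.9%). In Oct6-SK cells there were 10 and 7 summits, in 8 and 7 genes (background 7.02% and 8.85%). In Oct4defSox2-SK cells there were 14 and 68 summits, in 10 and 31 genes (background 12.3% and 48.1%). These counts moved with the whole lists, which held 15222 and 5832 summits for Oct4-SK cells. For Oct6-SK cells they held 3242 and 2673, and for the Oct4defSox2-SK cocktail 5794 and 21563. As shares of the lists, the day 5 value exceeded that of day 1 by 0.040 points in Oct4-SK cells and by 0.074 points in Oct4defSox2-SK cells. These directions depended on the flanks. With gene bodies alone the day 5 minus day 1 values were -0.027 and -0.014 points, and with scores of at least 10 they were -5.4e-05 and 0.030 points. In Oct6-SK cells the day 5 minus day 1 value was -0.047 points, -0.091 with gene bodies alone and 0.211 with scores of at least 10, the last from 0 summits on day 1 and 2 on day 5. Neither the interval of day 1 minus day 5 in Oct4-SK cells (-0.218 to 0.093) nor that in Oct4defSox2-SK cells (-0.203 to 0.103) excluded 0. In Oct4defSox2-SK cells 29 of 39 genes (74.4%) held more Sox2 summits on day 5 than on day 1 (background 44.2%), led by Col4a2 and Col22a1 with 6 each on day 5. In Oct4-SK cells 13 genes held fewer (background 25%) and 7 held more (background 9.66%).

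Type IV genes held the highest-scoring collagen summits of Sox2 on day 5 in Oct4-SK and Oct6-SK cells. Of 15 collagen summits in Oct4-SK cells on day 5, 9 (60.0%) had a Sox2 summit within 100 bp in Oct4defSox2-SK cells of that day, against 38.2% outside, and 5 of 7 in Oct6-SK cells did, against 52.4% outside. The intervals of both differences included 0 (-2.50 to 42.0 and -16.5 to 39.5 points). In an intron of Col4a1 at chr8:11308791-11308866, 4.03 kb from the start and also within 20 kb of Col4a2, Sox2 scored 6.2 on day 1 and 28.4 on day 5 in Oct4-SK cells and 6.5 and 30.8 in Oct4defSox2-SK cells, with no summit in Oct6-SK cells. The day 1 summits outranked 32.8% and 20.8% of their lists and those of day 5 96.8% and 94.3%. The day 1 and day 5 lists held 15222 and 5832 summits in Oct4-SK cells and 5794 and 21563 in Oct4defSox2-SK cells. These ranks are therefore not on 1 scale between days and do not measure a change. At a second Col4a1 intron site, chr8:11227575-11227620, the day 5 scores were 7.5 with Oct4-SK, 19.7 with Oct6-SK and 48.3 with Oct4defSox2-SK, above 33.5%, 94.7% and 98.1% of their lists, and no Sox2 library had a summit there on day 1. Col22a1, a FACIT of tissue junctions, had an intronic site scoring 48.3 in Oct4defSox2-SK and 12.7 in Oct4-SK cells on day 5, and the nearest day 1 summit of the former, with a score of 6.5, was 116 bp away. On day 1, 1 of 33 Sox2 summits in Oct4-SK cells (3.03%) had a day 5 partner in the same cocktail, against 7.24% outside.

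Oct4 and Sox2 met at few collagen positions. Of the 19 Oct4 day 1 summits, 5 (26.3%) had a Sox2 summit of the same cocktail and day within 100 bp, against 19.8% outside, and of the 11 on day 5, 2 (18.2%), against 9.75% outside. For Oct4defSox2 on day 1 it was 6 of 91 (6.59%), against 8.73% outside. The intervals of the 3 differences included 0, at -8.02 to 29.0, -4.64 to 38.0 and -5.69 to 4.92 points. Besides Col4a1, a SoxOct site in an intron of Col25a1 scored 10.7 for Oct4 and 18.0 for Sox2 on day 1 in Oct4-SK cells, and a SoxOct site 4.17 kb upstream of Col6a1 scored 5.4 and 17.9 on day 5. The Oct4 score of 5.4 was the lowest among the 11 collagen summits of its list and outranked 13.5% of that list.

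The elements at collagen summits were counted within 100 bp of a summit on both strands. SoxOct was allowed 2 mismatches, MORE and its form with 1 extra base 1 mismatch, and AP-1 (TGACTCA or TGAGTCA) none; the octamer ATGCAAAT overlaps the POU part of SoxOct. Among the Oct4 day 1 summits, 2 of 19 (10.5%) had SoxOct, against 15.1% outside, 2 (10.5%) had MORE, against 10.5% outside, and 3 (15.8%) had AP-1, against 11.3% outside. Among those of Oct4defSox2 on day 1, 7 of 91 (7.69%) had SoxOct, 7 (7.69%) had MORE and 13 (14.3%) had AP-1, against 7.49%, 7.11% and 14.3% outside. In Oct4 S151M, 16 of 282 (5.67%) had AP-1, against 7.72% outside. None of these 9 differences, counting those of Oct4 S151M given above, had an interval that excluded 0. Of the 28 Oct4 sites, 8 (28.6%) held a SoxOct, MORE or octamer element, against 30.6% elsewhere, and 9 (32.1%) lay at a Sox2 summit of any library, against 23.2%.

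The summits were also counted by collagen class, and no difference between classes was tested. Over its 3 days Oct4 had 13.2 summits per Mb of window in the 4 type IV genes (8 summits), 12.3 in the 3 type VI genes (3), 13.4 in the multiplexins (4), 10.5 in the short-chain genes (3), 6.32 in the FACIT genes (9), 4.76 in the 11 fibrillar genes (7) and 3.61 in the transmembrane genes (4). All 4 multiplexin summits lay in the window of Col15a1, and 5 of the 7 fibrillar summits in that of Col24a1. The anchoring fibril gene Col7a1, Col26a1 and Col28a1 had 0. Oct4 S151M ran from 26.7 per Mb in that last class to 94.7 in the short-chain genes, where Col8a1 held 23 of 27 summits. Oct4defSox2 had 31.6 per Mb in the short-chain genes, with 8 of its 9 summits in Col8a1. Sox2 had 44.7 per Mb in the type IV genes, 37.0 in the type VI genes and 26.5 in the fibrillar genes, and 13.4 to 24.6 in the other classes, pooled over 6 lists of unequal length. Of the 27 Sox2 summits in type IV genes, 13 came from Oct4defSox2-SK cells on day 5 and 0 from Oct6-SK cells on day 1. The day lists share sites, so that a site bound on all days counts once for each.

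**Figure D4:**
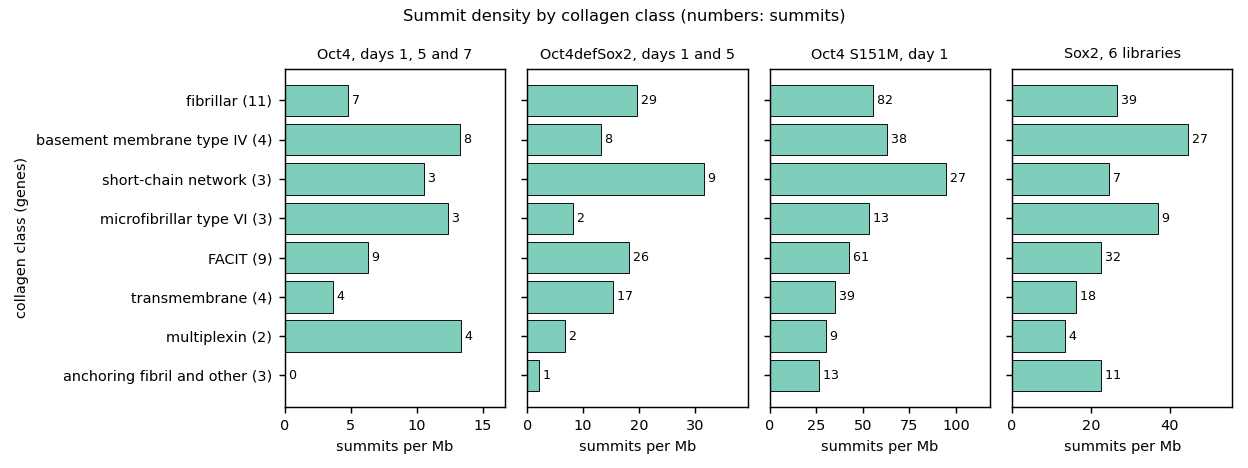
Summits per Mb of window in the 8 collagen classes for Oct4, Oct4defSox2, Oct4 S151M and Sox2, summed over their libraries (bars start at 0; number at each bar, summits; genes per class in brackets). Oct4 has between 0 and 9 summits in a class, and the type IV genes have 44.7 Sox2 summits per Mb, pooled over lists of unequal length.

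By gene, summits of all libraries per 100 kb of window ran from 1.7 in the transmembrane gene Col13a1 to 25.2 in Col8a1, with 24.8 in Col1a2 and 23.7 in Col5a2. This value pools 13 lists of unequal length, and the longest, Oct4 S151M, gave 282 of the 632 summits and 23 of the 43 in Col8a1. None of the 39 was without a summit (background 11.3%). Col7a1 and Col8a2 held 2 summits each, while Col25a1 held 58. Col24a1 and Col4a1 were reached by 10 of the 13 libraries, more than any other member.

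**Figure D5:**
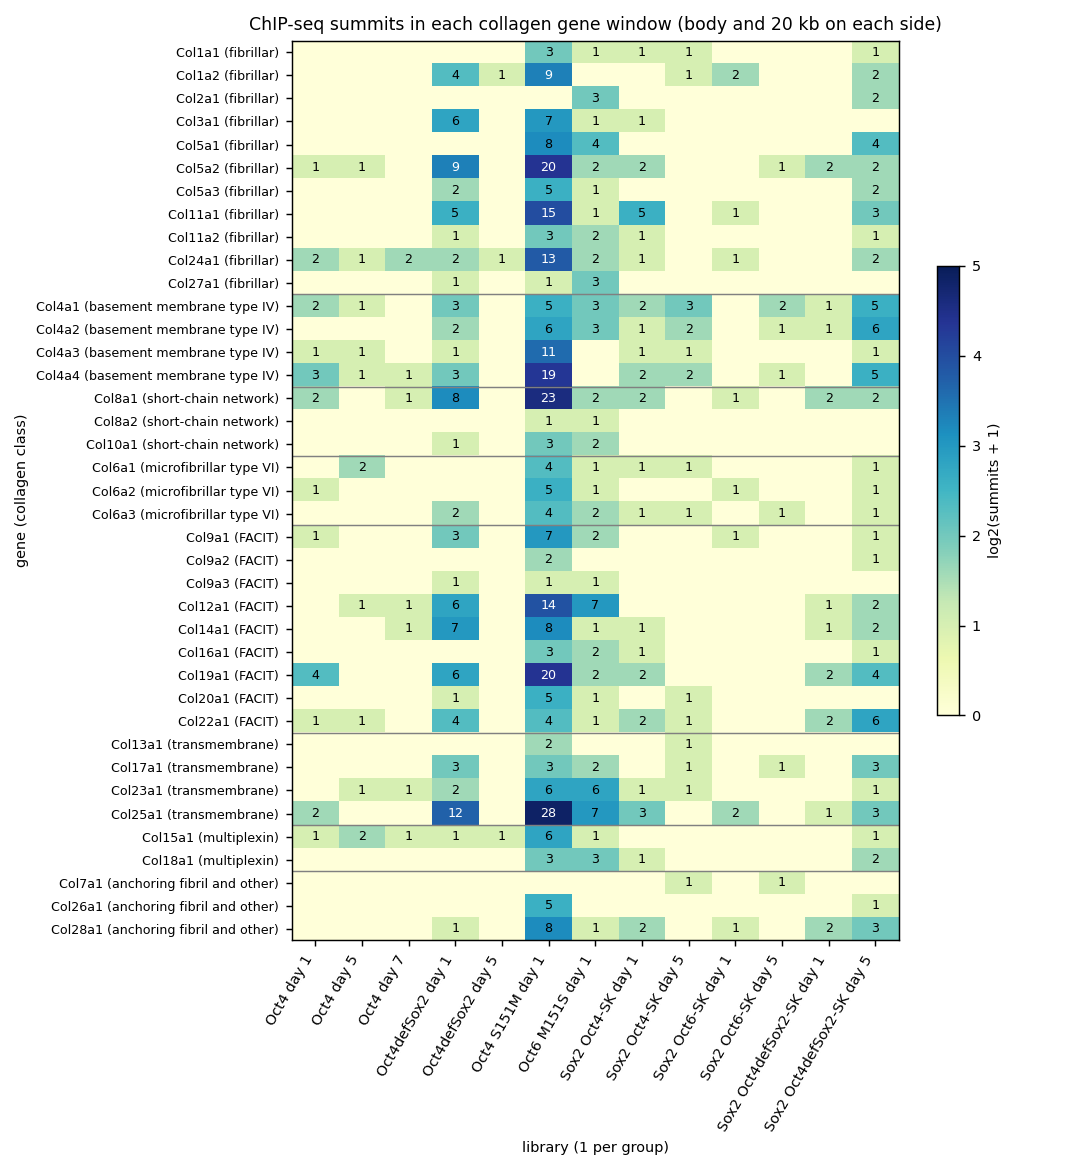
Number of summits in the window of each of the 39 collagen genes (rows, by class) in each of the 13 libraries (columns); colour is log2(summits + 1), and empty cells hold 0. The first 3 columns are empty for Col1a1, Col1a2 and Col3a1, and Oct4 S151M fills 37 of 39 rows.

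Genes that act on collagen were described by the same windows. Of 38 genes, comprising further collagen chains, modifying enzymes, chaperones and proteases, cross-linking enzymes and receptors, 12 had an Oct4 summit on day 1 (background 19.4%), 10 on day 5 (background 16.1%) and 6 on day 7 (background 11.9%). Oct4defSox2 reached 18 on day 1 (background 45.2%), Oct4 S151M 35 (background 78%) and Sox2 in Oct4-SK cells on day 1 14 (background 31.4%). Tll1, a tolloid-like protease that trims procollagen, held 5, 3 and 1 Oct4 summits on days 1, 5 and 7 and 31 of Oct4 S151M. P4ha2, a prolyl hydroxylase that stabilises the triple helix, held 3 Oct4 summits on day 1, 1 on day 5 and 0 on day 7. The collagen receptor Ddr2 held 2, 1 and 0, and the cross-linking enzyme Lox 0, 1 and 0. By group, Oct4 was found on day 1 in 2 of the 14 modifying enzymes, 3 of the 8 chaperones and proteases, 3 of the 5 further collagen chains, 2 of the 5 cross-linking enzymes and 2 of the 6 receptors, beside the same 19.4%. A longer gene has a longer window, and no density per Mb was computed for this list. Gene bodies spanned 191 kb for Tll1, 138 kb for Ddr2, 31.6 kb for P4ha2 and 13.8 kb for Lox. The 5 further chains spanned 105 to 309 kb, against the median of 17.4 kb over protein-coding genes.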

How the data were processed

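The authors profiled OG2 MEFs by ChIP-seq with antibodies against Oct4 (6 libraries), Sox2 (6) and Oct6 (1). For Sox2 the methods of the paper name alternative antibodies without linking them to libraries. They also name alternative sequencers, and shorter reads for Oct4 on day 7 than for the other samples. The authors aligned paired-end reads to mm10 with Bowtie2 (version 2.2.5 per the labels), filtered them and removed duplicates with SAMtools, and called summits per library with MACS2. The deposited score is the −log10 of the p-value at a summit, unscaled between libraries. Peak tables were also deposited for both residue-swapped factors, with a fold enrichment (a ratio) over local background and a −log10 q-value. Read depths were not used here, so the precision rests on the 1038 to 101170 summits of a library, and the 3 input libraries and the wild-type Oct6 ChIP were not used here.

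Python 3.11.15, pandas 2.3.3 and scipy 1.17.1 were used. The reference chromosomes matched the files (0 summits past an end). Density ratios have exact conditional binomial 95% intervals, shares Wilson and differences Newcombe intervals, all for counting error, and summits within a gene are not independent. The intervals and the motif search were checked on simulated data. Distance, score, flank, motif and list-size alternatives are given at the end. Named genes were Col1a1, Col1a2, Col3a1, Col4a1 and Col4a2, the gene with most summits and the highest summit in each library, genes with Oct4 at a site on all 3 days, and the 10 sites of most libraries. Members and lists were chosen with earlier results of these data known. Promoter distances used any basic transcript start, and values named outside this rule were chosen after they were seen.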

Additional observations from a re-analysis of the deposited data

Results flagged for a closer look

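The collagen share of the Sox2 summits moved in opposite directions between days 1 and 5 in different cocktails. It went from 0.308% to 0.262% in Oct6-SK cells, from 0.217% to 0.257% in Oct4-SK cells and from 0.242% to 0.315% in Oct4defSox2-SK cells. The change in Oct4-SK cells exceeded that in Oct6-SK cells by 0.087 percentage points, and the change in Oct6-SK cells minus that in Oct4defSox2-SK cells was -0.120 points. The difference was not tested, since each group had 1 library. The Oct6-SK values rest on 10 and 7 summits. The opposition depended on the 20 kb flanks and on weak summits. With gene bodies alone the day 5 minus day 1 value was negative in all 3 cocktails, at -0.091 points with Oct6-SK, -0.027 with Oct4-SK and -0.014 with Oct4defSox2-SK. With scores of at least 10 it was 0.211 points with Oct6-SK, from 0 and 2 summits, -5.4e-05 with Oct4-SK and 0.030 with Oct4defSox2-SK.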

How the results depend on the processing

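No paired analysis was possible because each group had 1 library. Over 154 alternative values of density ratios, share differences, shared summits and motif shares, 0 had an interval that excluded no effect, and 34 changed sign around it without doing so. A minimum score of 10 left no collagen summit in Oct6 M151S and in Sox2 of Oct6-SK cells on day 1, so their density ratios became 0, and the Sox2 share in Oct6-SK minus that in Oct4-SK cells on day 1 became -0.243 points. It left no Sox2 partner at Oct4 day 5 summits (-7.98 points). It also lowered the genes with a summit to 5 and 4 for Oct4 on days 5 and 7, 0 for Oct6 M151S, 9 and 7 for Sox2 with Oct4-SK, 0 and 2 with Oct6-SK and 5 and 20 with the Oct4defSox2-SK cocktail. In the same order, the share of all protein-coding genes at that minimum was 8.27%, 6.61%, 0.702%, 11.2%, 8.99%, 1.5%, 3.24%, 5.92% and 27.1%. Equal numbers of strongest summits gave -6.07 points for Oct4defSox2 with Sox2 and, chosen after seeing the data, 17 genes each for Oct4defSox2 and Oct4 S151M on day 1. With 1 mismatch more, AP-1 differed by -15.6 points for Oct4 and by -4.45 points for Oct4 S151M, and MORE by -3.77 points for Oct4defSox2. The other 150 values stayed within their intervals or within 1.5 times the count. A minimum of 4 for Oct6 M151S, also chosen after seeing the data, gave a ratio of 0.88. AP-1 has no value with fewer mismatches. With 3 to 19 collagen summits in the Oct4 lists and the Oct4defSox2 day 5 list, only large differences could be seen.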
